A study of Arabidopsis thaliana with 9 samples.

Results

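Of 9 Arabidopsis thaliana arrays, the 6 described here carry 2 mutant lines, 3 arrays of line1135 and 3 of line774, and each transcript was compared between these lines directly. Groups were taken from the array titles, and the 3 arrays of the wild-type control give the level from which either line had moved. The control arrays do not enter the difference between the lines, but they do enter the estimate of spread behind its standard errors, p-values and calls. RNA came from whole plants at growth stage 1.04, sown at 50 seeds per plate and kept at 21 °C for 17 days with 16 h light and 8 h dark, and was read on the Affymetrix ATH1 array, on which short probes grouped into a probe set report each transcript. The mutated gene of neither line is given by the labels, and all 9 samples, the control too, carry the same genotype label of a T-DNA mutation, so no targeted gene could be checked. Whether a group's arrays stand for separate cultures is also not in the labels, so the p-values reflect only sample-to-sample spread, which may be technical.

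Plants keep transposons and their remnants silent with DNA methylation, repressive histone marks and small RNAs, and this silencing is densest around the centromeres. When a component of the machinery is lost, such loci are transcribed again, and the set that returns depends on which component is missing and on whether other pathways still cover the locus. Genes that lie near or inside such repeats can be switched on with them. In the RefSeq gene table used here, loci of this kind carry no class of their own. Probe sets whose single annotated locus has a pseudogene type there are called pseudogene class below, a class that in Arabidopsis takes in many genes of transposons.

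Most calls between the lines were higher in line1135, and most of those were of the pseudogene class. Of 22746 probe sets tested, 99 were called higher in line1135 than in line774 (0.435%) and 38 were called lower (0.167%), where a call needed a Benjamini-Hochberg adjusted p under 0.05 from limma and a difference of at least 2-fold in signal + 16. All 137 called probe sets (0.602%) had arrays of the lines that did not overlap, as did 18.9% of all probe sets tested. Pseudogene-class loci made up 76 of the 99 and none of the 38, while protein-coding genes made up 13 of the 99 and 21 of the 38. The remaining 10 and 17 probe sets are unnamed in the annotation used here. Among protein-coding and among unnamed probe sets, lower calls thus outnumbered higher ones. Without _s_at and _x_at probe sets, whose probes also match related loci, the calls were 44 higher and 36 lower. Before adjustment, 1548 probe sets were higher and 1829 lower at p under 0.05 in limma. With an offset of 64 in place of 16 the calls were 48 and 13, and with an offset of 1 the lower calls were 71.

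Per array, the scaled signals left group medians of 35.8 to 36.9, and 15354 to 17793 probe sets lay above background, taken as the highest signal of the 27 Bacillus control probe sets of that array (5.36 to 13.4). All values below are deposited signals, differences are log2(signal + 16) in line1135 minus line774, and the offset of 16 understates the change of weak transcripts. Differences are given with limma standard errors, for groups of 3 arrays each. The spread behind them was estimated over all 9 arrays, control included, and drawn towards that of probe sets of similar signal. They are therefore not the observed spread of the arrays of the lines alone. Where no array of a group exceeded background, a fold is given as "at least". Among markers of other organs, 1 of 9 leaf genes and 4 of 12 root genes were named by the annotation used here, and none of 9 flower, 11 seed and 8 senescence genes. RCA, the Rubisco activase of leaves, read 5976, 5984 and 5740.2 in line774 and 5807, 6141 and 6608 in line1135, so the labelled green tissue was present on every array. The summed signal of the 4 root genes was 2471 to 3556 in line774 and 2762 to 3571 in line1135.

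Loci of the pseudogene class gave more signal in line1135. They took 1.577%, 1.564% and 1.569% of all signal in line1135, against 1.072%, 0.979% and 0.889% in line774 and 0.0948% ± 0.0118 in the control (SD, n = 3). Every line1135 array lay above every line774 array, and both lines lay far above the control. The class includes 191 _s_at or _x_at probe sets, so 1 transcript may enter these shares many times. Shares without those probe sets are not given here. On 989 probe sets of this class, 76 were called higher in line1135 (7.68%, against 0.435% of all probe sets), 0 were called lower and 913 were not called. With no minimum fold, 111 of the class were higher and 3 lower, while over all probe sets 1.13% were higher and 0.87% lower. The median difference of the class was 0.08 on the log2 scale and that of all probe sets -0.0023, and 433 of the 989 exceeded background on none of the 9 arrays.

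The 76 probe sets differed in their level in line774. In 24, no line774 array exceeded background: their median signal was 1.90 in line774 and 35.1 in line1135, and all 24 were called above the control in line1135. In 39, all 3 line774 arrays exceeded background, with a median signal of 63.9 in line774 and 298 in line1135, and 30 of these were called above the control in line774 too. The other 13 had 1 or 2 line774 arrays above background. All 76 were called above the control in line1135, where 1.06% of all probe sets were called higher (1.02% in line774). The 76 were chosen as high on the same 3 line1135 arrays, so their calls above the control in line1135 were largely fixed by that choice. The comparisons of the lines with the control also share the 3 control arrays. All are given side by side and not as separate evidence.

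**Figure D1:**
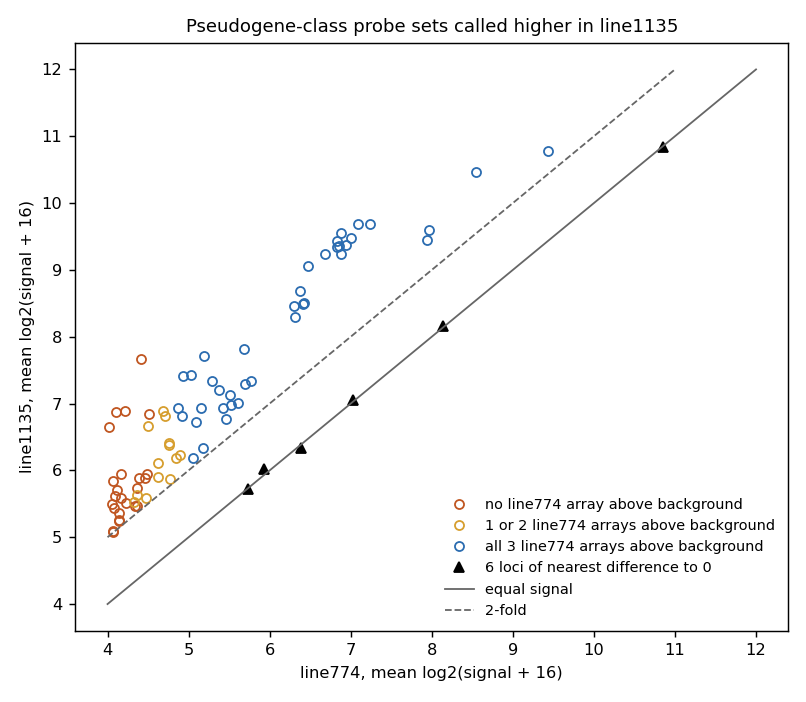
Mean log2(signal + 16) of the 76 pseudogene-class probe sets called higher in line1135, with line774 on the x axis and line1135 on the y axis, coloured by how many line774 arrays exceeded background, and with 6 loci of nearly equal signal as black triangles. The 24 loci with no line774 array above background stand in a column at the left edge, the 39 present on all 3 line774 arrays run along and above the dashed 2-fold line, and the triangles lie on the solid line of equal signal.

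A stricter description counts a locus as raised in line1135 only when line774 stayed within 0.5 log2 units of the control. By it, 34 of the 76 were raised in line1135 only, and 30 were raised in both lines and further in line1135. The other 12 met neither description, with line774 over 0.5 log2 units from the control but not called above it. The limit does not mean that line774 equalled the control at all 34. At AT4G10580, one of them, line774 read 15.6, 16.5 and 17.9 against 8.78, 5.19 and 7.56 in the control (0.498 ± 0.125, adjusted p = 0.0246 in limma). Of the 34, 15 were read by probe sets ending in _at, which are specific to the locus in the array's design, but of the 30 only 4 were, and the other 26 ended in _s_at or _x_at, whose probes also match related loci, so that 1 transcript may be read many times. Over the whole class, 26 of 798 locus-specific and 50 of 191 shared probe sets were called higher.

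AT1G36590 was the strongest of the loci found in line1135 only. Its signals were 190.1, 191 and 182 in line1135, 6.48, 0.727 and 10.0 in line774 and 0.765, 0.477 and 0.723 in the control, none of the last 6 above background. That put line1135 at least 18.8-fold above line774 (adjusted p = 2.91e-06). AT4G08680, the Mutator-type element AtMu1 whose silencing depends on DNA methylation, gave 107, 109.6 and 89.3 in line1135 and 0.982, 0.464 and 2.26 in line774, at least 10.2-fold (adjusted p = 2.91e-06). Its control arrays read 0.196, 0.874 and 3.45, and no array of line774 or the control exceeded background. For AT2G05470 the values were 105, 92.6 and 110.1 against 6.32, 1.28 and 0.459, at least 10.3-fold (adjusted p = 4.81e-06). These 3 were read by shared probe sets.

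Among loci with probes of their own, AT2G24930 had signals of 69.3, 100.5 and 85.4 in line1135 and only 0.182, 0.210 and 0.191 in line774, within the range of its control arrays (0.121, 1.05 and 3.76). It was at least 8.44-fold higher in line1135 (adjusted p = 4.81e-06), and no line774 or control array exceeded background. Smaller rises of the same form were seen at AT1G37080 (0.819, 2.02 and 0.458 in line774, 25.7, 45.4 and 30.5 in line1135), at least 3.3-fold. AT5G32430 went from 2.41, 8.98 and 2.90 to 39.6, 30.7 and 42.6, at least 3.74-fold, and AT2G11680 from 0.975, 0.641 and 0.989 to 29.6, 23.0 and 29.9, at least 2.74-fold. At these loci the lines did not overlap, and the adjusted p was 0.000193, 0.000858 and 4.63e-05. AT2G12320, AT1G33580 and AT2G05820, also with probes of their own, were at least 2.52-fold, 2.84-fold and 2.18-fold higher. AT1G35995 had the smallest difference of the 26 with their own probes, with 29.4, 14.0 and 13.4 in line1135, at least 1.77-fold higher, and its call was lost without line1135 replicate 1 (a log2 difference of 0.82). Of the 76 calls, 70 held when each of the 9 arrays was left out in turn. On an offset of 64 in place of 16, 37 of the 76 calls were lost and the class count was 39, and without probe sets in the lower 50% of mean signal it was 41.

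Loci already raised in line774 were often higher again in line1135. AT4G05640, the most abundant of the 76, has probes of its own and read 807, 635 and 600.1 in line774 and 1709, 1835 and 1659.6 in line1135, from 4.51, 3.55 and 4.17 in the control. It was at least 113-fold above the control in line774 and at least 289-fold in line1135, and the step between the lines was 1.34 ± 0.10 (adjusted p = 3.89e-05). AT3G47260 showed the largest step of the loci raised in both, from 134, 126 and 61.6 in line774 to 844, 692 and 686 in line1135 (2.67 ± 0.21, adjusted p = 4.73e-05). Here the lowest line774 value was that of replicate 3, which was the lowest of its group at 45 of the 76 loci. Without that array 75 pseudogene-class probe sets were called higher.

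Further shared probe sets had large differences. AT2G14130 read 102, 126 and 71.2 in line774 and 706, 642 and 681 in line1135 (2.61 ± 0.15), and AT2G06430 172, 145 and 67.4 in line774 against 943, 754 and 736 in line1135 (2.59 ± 0.24). AT3G32900 (2.58 ± 0.25), AT3G30440 (2.56 ± 0.15), AT5G34900 (2.51 ± 0.22), AT2G02210 (2.50 ± 0.13) and AT4G04010 (2.48 ± 0.15) followed. All 7 carry _x_at probe sets, so they cannot be counted as separate loci. Of the 15 largest increases with 1 annotated gene, 13 were of the pseudogene class.

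**Figure D2:**
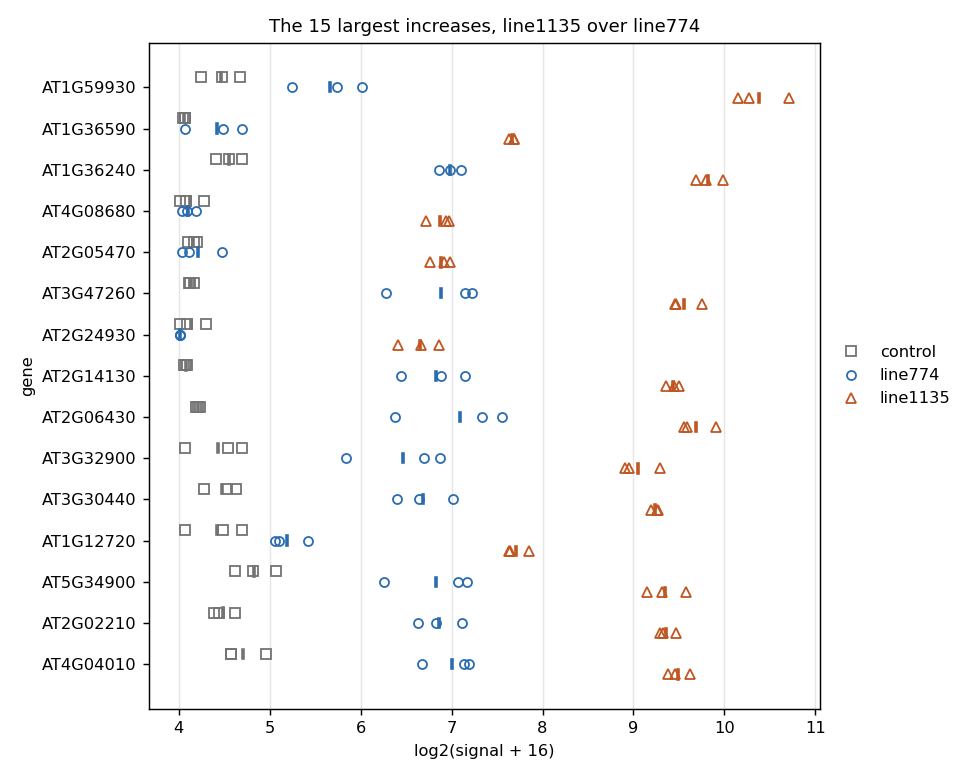
Signal of the 15 probe sets with the largest increase, as log2(signal + 16) on the x axis and one gene a row, with squares for the 3 control arrays, circles for line774, triangles for line1135 and a bar at each group's mean. AT1G36590, AT4G08680, AT2G05470 and AT2G24930 show line774 close to the control, while AT3G47260, AT2G14130 and the other shared probe sets show 3 separate levels.

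Loci with their own probes also showed such steps. AT3G33080 read 35.2, 18.7 and 24.6 in line774 and 123, 129.9 and 139.9 in line1135 (1.82 ± 0.15, adjusted p = 8.65e-05), from under 0.5 on every control array. AT4G18410 gave 52.6, 25.5 and 17.0 in line774 against 121, 129.8 and 119 in line1135 (1.62 ± 0.22, adjusted p = 0.00364), with line774 spread more widely than line1135. AT2G14630 gave 38.1, 42.0 and 21.1 in line774 against 124, 108 and 107 in line1135 (1.40 ± 0.18, adjusted p = 0.00202). AT1G12720 is one of the 12 that met neither description. It had 18.4, 26.8 and 17.3 in line774, a change from the control of 0.77 ± 0.18 that missed the 2-fold limit, and 183, 215 and 183 in line1135 (2.52 ± 0.18, adjusted p = 2.02e-05). AT4G04590 (1.79 ± 0.16), AT5G26350 (1.62 ± 0.22), AT4G08050 (1.49 ± 0.16), AT2G06180 (1.34 ± 0.14) and AT2G15510 (1.16 ± 0.19) were also of these 12, each with a change from the control in line774 of 0.61 to 0.92.

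Not every reactivated locus separated the lines. Of 84 pseudogene-class probe sets called above the control in both lines, 30 were higher in line1135, 0 were lower and 54 were not called between the lines. Their median difference was 0.52, with a range of -0.76 to 2.67, and 72 were positive. Of the 64 called in line1135 and not in line774, 46 were called higher in the direct comparison, and 57 passed its adjusted p threshold at any fold. Of the 3 called in line774 and not in line1135, 0 passed it at any fold. The sets of 64 and 3 were chosen on the same arrays of the lines, so the direction of their differences was largely fixed. Over all probe sets, 0.435% were called higher in line1135 and 1.13% passed the threshold as higher at any fold.

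The 6 loci of both lines with the smallest difference give the levels of loci raised to a similar extent. AT5G43800, with probes of its own, read 268, 281 and 247 in line774 and 265, 280.1 and 269 in line1135, with 6.71, 0.950 and 4.62 in the control. The difference of 0.03 ± 0.11 had a 95% interval of -0.22 to 0.28. AT3G15310 gave 154, 121 and 79.6 in line774 against 109, 119 and 124 in line1135 (interval -0.39 to 0.45), and AT2G13310 88.9, 66.7 and 52.1 in line774 against 70.8, 63.5 and 59.7 in line1135 (interval -0.42 to 0.30), both with overlapping lines. AT1G33130, a strongly raised locus with a shared probe set, gave 2074, 1870.0 and 1574 in line774 against 1888, 1884 and 1659 in line1135 (interval -0.36 to 0.33). The remaining 2 were AT4G03850 (interval -0.39 to 0.38) and AT3G29610 (interval -0.22 to 0.41). These 6 were picked for their small difference, so their intervals are centred near 0 by that choice and may understate the difference. They do not describe the other loci raised in both lines.

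No pseudogene-class locus passed the 2-fold limit in favour of line774. With no minimum fold, AT2G12980 read 2324, 2052 and 2138 in line774 and 1439, 1377 and 1612 in line1135 (-0.55 ± 0.08, adjusted p = 0.00365), and AT1G36190 955, 722 and 768 in line774 against 546, 473 and 512 in line1135 (-0.65 ± 0.13, adjusted p = 0.0306). Both were raised far above the control in either line, and both were read by shared probe sets. AT1G43590, with probes of its own, read 25.1, 23.9 and 14.3 in line774 and did not exceed background in line1135 (5.61, 7.59 and 7.44), at least 2.22-fold apart (adjusted p = 0.0425). The most negative value of the class, at AT4G04430, was -0.76 ± 0.18 and missed the threshold (adjusted p = 0.0693), though its line774 arrays (96.3, 50.4 and 55.3) lay above those of line1135 (32.3, 31.6 and 31.4).

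Genes known to be controlled by methylation were mixed. Of 15 such genes listed, 4 were measured and 1, AtMu1, was called higher in line1135, against 0.435% of all probe sets. AtMu1 and AT2G04770 are pseudogene-class loci with shared probe sets, a kind of which 50 of 191 were called higher. QQS, an orphan gene with a role in starch metabolism and a promoter whose methylation varies, was raised in both lines, with 1294, 1223 and 1379 in line774 and 1327, 1241 and 1294 in line1135 against 163, 138 and 133 in the control (interval of the difference -0.19 to 0.17). The CACTA-type element gene AT2G04770, with a shared probe set, had 785, 835 and 766 in line774 against 1058, 1025 and 1478 in line1135 (0.55 ± 0.13, adjusted p = 0.0699), a difference that did not pass. For MPC, an imprinted gene of the endosperm, the difference was -0.03 ± 0.22.

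Calls came from all 5 chromosomes. On chromosome 2, 29 of 298 pseudogene-class probe sets were higher in line1135 (9.73%), on chromosome 4 it was 15 of 174 (8.62%), on chromosome 1 it was 15 of 193 (7.77%), on chromosome 3 it was 12 of 207 (5.8%) and on chromosome 5 it was 5 of 117 (4.27%). With locus-specific probe sets alone these shares were 4.18%, 3.62%, 4.05%, 1.18% and 2.88%, a different order, and the differences between chromosomes were not tested. Of 110 called loci, 26 lay within 3 genes of another called locus in the gene order of the TAIR10.1 table. They formed 13 pairs, of which 9 were next to each other. The same share over all loci was not computed.

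In 3 of these 13 pairs both loci had their own probes. AT4G18410 and AT4G18420 are adjacent, and AT4G18420 read 17.3, 6.87 and 10.5 in line774 and 41.7, 39.0 and 47.5 in line1135 (1.11 ± 0.19). AT2G10630 (18.1, 11.1 and 24.2 in line774, 56.8, 38.7 and 79.8 in line1135) and AT2G10660 (9.16, 3.66 and 6.08 in line774 against 26.9, 24.3 and 48.8 in line1135) lie 3 genes apart. The calls of 3 of these depended on single arrays. That of AT4G18420 was lost without line774 replicate 2 or line1135 replicate 3 (adjusted p up to 0.0631, and without line774 replicate 2 a log2 difference of 0.98), that of AT2G10630 without control replicate 2, line774 replicate 1 or 2 or line1135 replicate 1 or 3 (adjusted p up to 0.112, and a log2 difference of 0.92 at the least) and that of AT2G10660 without line774 replicate 2 or line1135 replicate 3 (adjusted p = 0.0503 without line774 replicate 2, and without line1135 replicate 3 a log2 difference of 0.91). The third pair joined a protein-coding gene, AT5G28560, to the adjacent pseudogene-class locus AT5G28570. AT5G28560 rose from 14.0, 19.5 and 17.6 in line774 to 66.8, 74.2 and 60.9 in line1135 (1.33 ± 0.14, adjusted p = 0.00049). AT5G28570 read 6.36, 8.22 and 1.05 in line774 against 52.4, 43.2 and 35.2 in line1135, at least 4.32-fold higher.

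Few protein-coding genes were called. Of 12443 probe sets, 13 were higher in line1135 (0.104%, against 0.435% of all probe sets) and 21 lower (0.169%, against 0.167%), so the share of lower calls was at the background of the array. Of the 13, 8 were raised in line1135 only, 3 were raised in both lines and further in line1135, and 2 met neither description. An annotated pseudogene locus lay within 3 genes of 8 of the 13 higher and 8 of the 21 lower, and of 22% of all 12374 protein-coding probe sets placed in the gene order. An offset of 64 left 5 higher and 9 lower, and an offset of 1 gave 20 and 39.

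AT1G59930 showed the largest difference of any named probe set. It read 6.26, 9.55 and 2.93 in the control, 37.4, 48.8 and 22.0 in line774 and 1215, 1117 and 1663 in line1135, so the 3 groups stood apart and the line1135 arrays spread by less than their distance from line774. The difference was 4.71 ± 0.20 (adjusted p = 1.16e-06), on an _x_at probe set. AT1G36240, which encodes a ribosomal protein of the large subunit (L30 family), went from 9.96, 7.47 and 5.33 in the control to 121, 100.4 and 110.5 in line774 and 995, 811 and 876 in line1135 (2.84 ± 0.11, adjusted p = 4.84e-07). AT5G07570 was below background in the control and read 27.4, 46.9 and 32.0 in line774 and 147, 212 and 196 in line1135 (1.97 ± 0.17, adjusted p = 0.000103). These are the 3 raised in both lines.

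SQN encodes cyclophilin 40, a cochaperone needed for microRNA activity. Control arrays read 68.0, 63.9 and 55.0, those of line774 117, 176 and 128 and those of line1135 625, 819 and 729.5, again 3 separate levels, with a difference of 2.26 ± 0.14 between the lines (adjusted p = 9.1e-06). Its rise in line774 (0.98 ± 0.14) fell just short of 2-fold, and that in line1135 was 3.24 ± 0.14. The nearest measured pseudogene-class locus, AT2G15810, 2 genes away, had mean signals below background, at 1.71 for the control, 1.90 for line774 and 2.50 for line1135 (difference 0.04 ± 0.09, adjusted p = 0.884). CCS, the copper chaperone that loads the copper/zinc superoxide dismutases, read 202, 251 and 293 in the control. Line774 gave 201, 146 and 189, and line1135 405, 339.8 and 411. Against the control, line1135 changed by 0.61 ± 0.14 (adjusted p = 0.0167) and line774 by -0.44 ± 0.14, which did not pass (adjusted p = 0.0702). Neither line was called against the control. The difference between the lines was 1.05 ± 0.14 (adjusted p = 0.00302), and its call was lost without line774 replicate 2 (a log2 difference of 0.92).

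**Figure D3:**
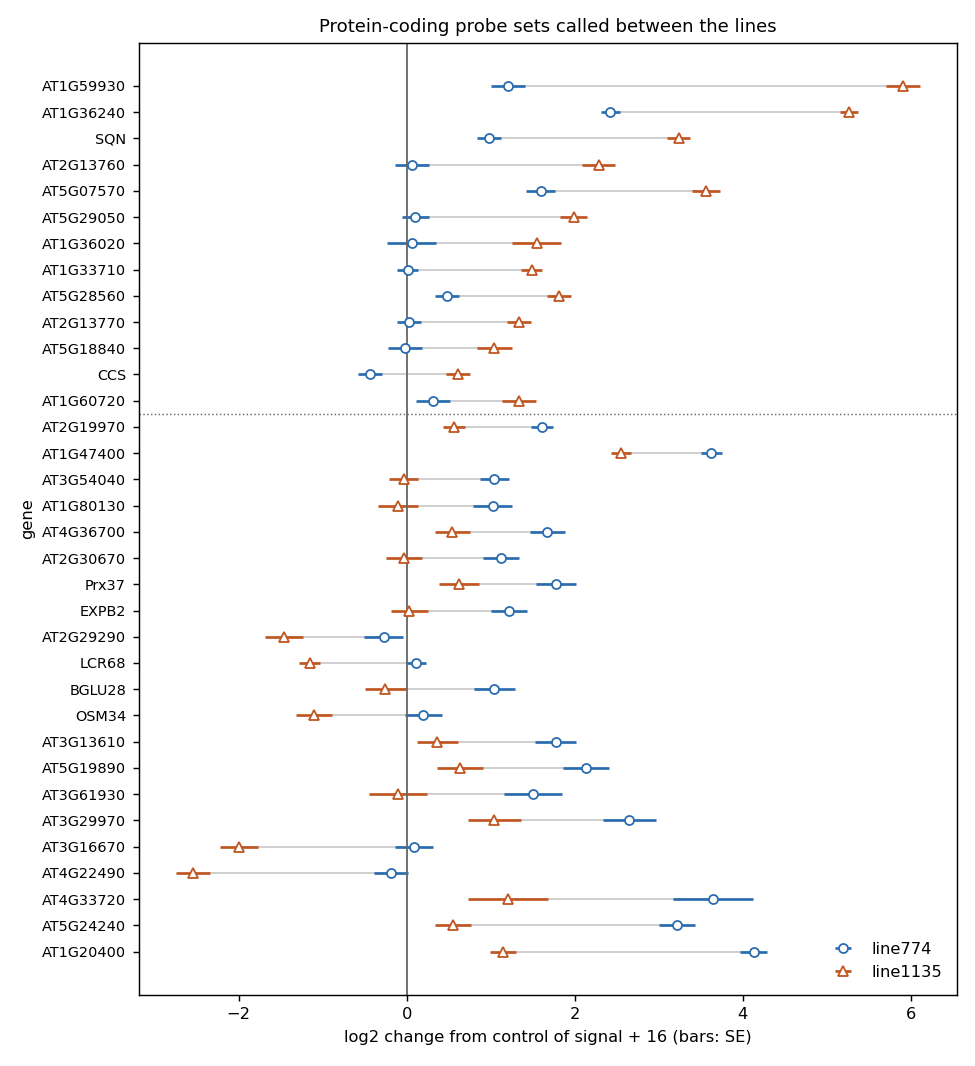
Change from the control in log2(signal + 16) on the x axis for the 34 protein-coding probe sets called between the lines, one gene a row, with circles for line774, triangles for line1135 and bars for the standard error. Above the dotted line, triangles lie to the right of circles, by up to 4.71 at AT1G59930. Below it circles lie to the right, with the line774 circle far to the right of 0 for AT1G20400 and AT5G24240 and the line1135 triangle to the left of 0 for AT4G22490, AT3G16670, LCR68, OSM34 and AT2G29290.

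The 8 genes raised in line1135 only mostly had low signals. AT2G13760 read 45.1, 94.9 and 81.5 in line1135 and stayed below background in line774 and control (3.40, 2.30 and 2.30 in line774), at least 7.06-fold apart. AT2G13770, 2 genes further along, was at least 2.76-fold higher, and both have shared probe sets. AT5G29050 gave 0.441, 5.45 and 0.415 in line774 against 51.9, 38.6 and 62.9 in line1135, at least 5.03-fold, and AT1G33710 0.957, 0.769 and 1.51 in line774 against 29.7, 40.4 and 25.6 in line1135, at least 3.14-fold, on their own probes. AT5G18840, a sugar transporter of the ERD6-like family, was the only one of the 8 with every control array above background. It read 82.4, 135 and 137 there, 87.6, 117 and 142 in line774 and 311, 262 and 202 in line1135 (1.06 ± 0.21, adjusted p = 0.0276). Its call was lost without line774 replicate 1 or 2 or line1135 replicate 1 or 2 (adjusted p up to 0.102, and a log2 difference of 0.90 at the least). That of AT1G36020 (0.503, 11.5 and 2.72 in line774, 27.5, 81.2 and 28.2 in line1135) was lost without control replicate 2 or line774 replicate 1 or 3 (adjusted p up to 0.0981), and that of AT1G60720 (7.22, 14.9 and 11.6 in line774 against 36.5, 49.5 and 32.4 in line1135) without line774 replicate 1, 2 or 3 or line1135 replicate 1, 2 or 3 (adjusted p up to 0.096, and a log2 difference of 0.90 at the least). AT1G60720 also has a shared probe set. The eighth is AT5G28560, described above. Its control arrays read 5.09, 7.70 and 10.6, all below its line774 arrays. The change in line774 was 0.477 ± 0.142 (adjusted p = 0.0509 in limma), close to the limit of 0.5.

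Genes lower in line1135 than in line774 differed in which line had moved from the control. Of the 21, 7 were raised in line774 only, 2 were raised in both lines and further in line774, 5 were lowered in line1135 only, and 7 met none of these. Against the control, 1.22% of all probe sets were called lower in line1135 and 0.98% in line774. Only 5 of the 21 kept their call when each of the 9 arrays was left out in turn: AT1G20400, AT5G24240, AT4G22490, AT3G16670 and LCR68. The count of 21 was 13 without line774 replicate 1, 12 without line774 replicate 2 or line1135 replicate 1, and 11 without line1135 replicate 3. Among all 38 lower probe sets, replicate 3 was the lowest of its group at 21 in line774, 21 in line1135 and 17 in the control. Replicate 2 was the highest of its group at 27 in line1135, 27 in the control and 11 in line774.

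AT1G20400 gave the largest decrease. It read 1.12, 0.292 and 4.65 in the control, none above background, 378, 253 and 278 in line774 and 21.9, 25.7 and 23.5 in line1135, so both lines lay above the control but at different levels. The difference was -2.99 ± 0.16 (adjusted p = 3.99e-06). AT5G24240, which encodes a phosphatidylinositol 4-kinase of the gamma type, went from 1.20, 0.926 and 0.533 in the control to 159.6, 143 and 123 in line774, at least 23.5-fold. In line1135 it read 2.94, 6.27 and 20.1, with 1 of 3 arrays above background, and the difference was -2.66 ± 0.21 (adjusted p = 5.89e-05). AT1G47400, a small peptide of the IRON MAN family that promotes iron uptake, was raised in both lines, with 12.5, 19.1 and 13.3 in the control, 418, 351 and 331 in line774 and 169, 182 and 145 in line1135. Its difference of -1.08 ± 0.12 (adjusted p = 0.000823) fell below 2-fold without line774 replicate 1 or line1135 replicate 3 (a log2 difference of -0.98 at the least).

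**Figure D4:**
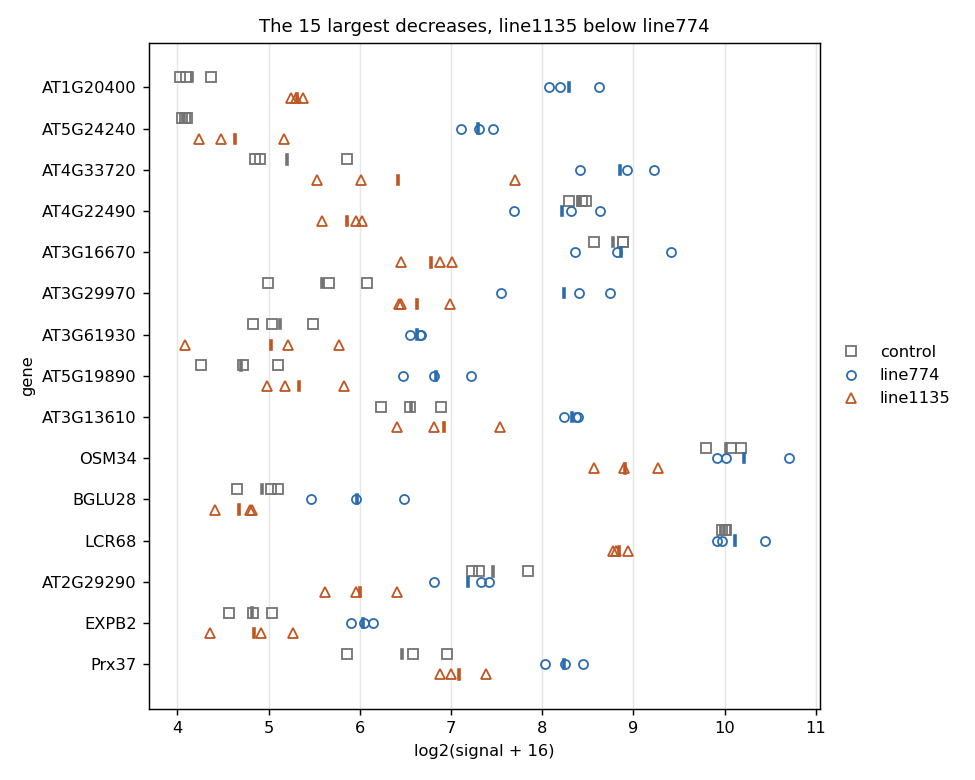
Signal of the 15 probe sets with the largest decrease in line1135, as log2(signal + 16) on the x axis and one gene a row, with squares for control arrays, circles for line774, triangles for line1135 and a bar at each group's mean. AT1G20400 and AT5G24240 show line774 far right of both other groups, AT4G22490, AT3G16670, OSM34 and LCR68 show line1135 left of control and line774, and AT4G33720 shows 1 line1135 array well above the other 2.

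In 5 genes line1135 was lower than the control and line774 lay within 0.5 log2 units of it. AT4G22490, a small secreted protein of the lipid-transfer type, read 340.0, 331 and 297 in the control, 380.0, 302 and 191 in line774 and 46.2, 49.1 and 32.0 in line1135 (-2.36 ± 0.20, adjusted p = 9.32e-05). AT3G16670, of the pollen Ole e 1 and extensin family, had control signals of 456, 456 and 363 and read 666, 436 and 312 in line774 against 113, 102 and 71.6 in line1135 (-2.08 ± 0.23, adjusted p = 0.000651). For LCR68, a defensin-like peptide, the values were 1015, 1019.7 and 988 in the control, 947, 988 and 1381 in line774 and 422, 477 and 433 in line1135 (-1.27 ± 0.12, adjusted p = 0.000227). These 3 kept their calls without each array. OSM34, an osmotin-like protein of the pathogenesis-related class, had control signals of 1059.6, 1140.3 and 872 and gave 1659, 1021 and 951 in line774 against 363, 601 and 461 in line1135 (-1.30 ± 0.21, adjusted p = 0.0109), and its call was lost without line1135 replicate 3 (adjusted p = 0.0507). AT2G29290, an enzyme of the tropinone reductase-like family, gave 145, 96.5 and 154 in line774 against 46.2, 69.2 and 33.3 in line1135 (-1.19 ± 0.23), and lost its call without line774 replicate 1 or 3 or line1135 replicate 1 or 3 (adjusted p up to 0.101).

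The 7 genes raised in line774 only had modest steps. AT3G13610 encodes F6'H1, the enzyme that starts coumarin synthesis in iron-starved roots. It read 59.3, 102 and 77.9 in the control, 286, 319 and 314 in line774 and 96.9, 170.2 and 68.7 in line1135 (-1.41 ± 0.24, adjusted p = 0.0147), and lost its call without line774 replicate 2 or line1135 replicate 1 (adjusted p up to 0.0677). AT3G54040 read 131, 102 and 98.2 in line774 against 41.9, 44.2 and 44.0 in line1135 (-1.08 ± 0.17), with line1135 inside the control's range, and lost its call without line774 replicate 1 (a log2 difference of -0.97). EXPB2, a beta-expansin that loosens cell walls, gave 44.0, 50.0 and 54.8 in line774 against 14.1, 22.5 and 4.46 in line1135 (-1.19 ± 0.22). BGLU28, a beta-glucosidase induced by sulfur starvation, gave 73.8, 28.1 and 46.3 in line774 against 12.2, 5.30 and 11.8 in line1135 (-1.29 ± 0.24). EXPB2 lost its call without line774 replicate 1, 2 or 3 or line1135 replicate 1 or 3 (adjusted p up to 0.0803, and without line1135 replicate 3 a log2 difference of -0.94) and BGLU28 without line774 replicate 1 or 3 or line1135 replicate 1, 2 or 3 (adjusted p up to 0.0708). AT2G30670, like AT2G29290 of the tropinone reductase-like family, differed by -1.15 ± 0.21 and lost its call without line774 replicate 1 or 2 or line1135 replicate 1, 2 or 3 (adjusted p up to 0.0901, and without line774 replicate 1 a log2 difference of -0.91). For AT3G61930 the difference was -1.60 ± 0.35, lost without control replicate 1, 2 or 3, line774 replicate 1, 2 or 3 or line1135 replicate 1 or 3 (adjusted p up to 0.137), and for AT1G80130 it was -1.12 ± 0.24, lost without control replicate 1, 2 or 3, line774 replicate 1 or 2 or line1135 replicate 1, 2 or 3 (adjusted p up to 0.152, and a log2 difference of -0.87 at the least).

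Beside AT5G24240, 6 lower genes were called above the control in line774 and had a smaller change in line1135 that was not called but was over 0.5 log2 units. AT4G33720, a secreted protein of the PR-1-like family, read 12.8, 42.2 and 14.0 in the control, 584, 471 and 325 in line774 and 30.2, 193 and 48.6 in line1135. Line1135 replicate 2 stood apart from its group, and the difference of -2.44 ± 0.48 (adjusted p = 0.0276) had a larger standard error than the other genes of this group. It lost its call without line774 replicate 1 or 2 or line1135 replicate 1 or 3 (adjusted p up to 0.118). AT2G19970, of the same family, was steadier at 103, 91.3 and 123 in line774 against 45.1, 41.9 and 41.3 in line1135 (-1.05 ± 0.13, adjusted p = 0.00149), and dropped under 2-fold without line774 replicate 3 (a log2 difference of -0.95). Class III peroxidases act in the cell wall, and 2 were among these genes. AT5G19890 gave 133, 96.4 and 72.6 in line774 against 20.1, 41.0 and 15.7 in line1135 (-1.50 ± 0.28) and Prx37 288, 332 and 246 in line774 against 112, 151 and 102 in line1135 (-1.15 ± 0.24). AT5G19890 lost its call without line774 replicate 1 or 2 or line1135 replicate 1 or 3 (adjusted p up to 0.0918), and Prx37 without control replicate 3, line774 replicate 1, 2 or 3 or line1135 replicate 1 or 3 (adjusted p up to 0.139). AT3G29970, a protein of the B12D family, differed by -1.61 ± 0.32 and lost its call without control replicate 3, line774 replicate 1 or 2 or line1135 replicate 1 or 3 (adjusted p up to 0.12). AT4G36700, of the cupin family, differed by -1.13 ± 0.21 and lost its call without line774 replicate 2 or 3 or line1135 replicate 2 or 3 (adjusted p up to 0.0693, and without line1135 replicate 3 a log2 difference of -0.89).

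By pathway, the median furthest from 0 was that of the iron deficiency genes, although few could be read. Of 26 listed, 5 were named by the annotation used here: 1 was called lower in line1135 (F6'H1), against 0.167% of all probe sets, and 0 higher, and the median difference was -0.74, against -0.0023 over all probe sets. S8H (AT3G12900), which hydroxylates scopoletin to fraxetin, read 41.5, 40.9 and 36.3 in line774 and 12.7, 16.1 and 11.3 in line1135 (-0.92 ± 0.16, adjusted p = 0.0163), past the p threshold but under 2-fold. BHLH101, a transcription factor of the iron response, had 43.7, 32.5 and 28.1 in line774 against 15.1, 8.86 and 19.5 in line1135 (-0.74 ± 0.17, adjusted p = 0.0632). PYE and BGLU42 differed by -0.23 ± 0.19 and 0.03 ± 0.10. AT1G47400, described above, is not on this list. Among the 4 root markers measured, 3 had negative differences and 0 were called. AT4G26010, a root-hair peroxidase, was -0.80 ± 0.21 (adjusted p = 0.0934), EXPA18 -0.57 ± 0.20 and EXPA7 -0.32 ± 0.16. PYK10, the most abundant of them, was 0.11 ± 0.14. The part of root RNA in the iron and peroxidase results was not tested, and in whole plants fewer cells of a type and less RNA per cell cannot be told apart.

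Secreted defence proteins gave 4 lower calls among 12 measured of 24 listed (AT4G33720, OSM34, AT5G19890 and AT4G22490), 0 higher, and a median of -0.50. Over all probe sets 0.167% were called lower and the median was -0.0023. The list was drawn up with earlier results of these arrays known, so its count is a description. Of the members not called, PDF1.2b, a defensin of the jasmonate response, varied widely within line774 and read 401, 60.6 and 105 in line774 and 43.1, 116 and 73.4 in line1135 (-0.83 ± 0.54). ChiC, a chitinase, read 62.8, 83.1 and 90.9 in line774 against 52.9, 50.8 and 37.5 in line1135 (-0.59 ± 0.16, adjusted p = 0.106), without overlap of the lines. Its control arrays read 323, 264 and 216, and each line was called below the control. Among 8 measured flavonoid genes of 22, 0 were called and the median was -0.21. DFR, the anthocyanin enzyme dihydroflavonol reductase, was the one to pass the p threshold, with 36.3, 45.1 and 49.6 in line774 and 18.4, 24.7 and 18.5 in line1135 (-0.71 ± 0.15, adjusted p = 0.0377).

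No member was called between the lines in the other lists: salicylic acid (2 measured of 16), cold, drought and abscisic acid (5 of 20), heat shock (2 of 14), silencing regulators (2 of 39), DNA damage and cell cycle (3 of 20), photosynthesis (3 of 19) and flowering (1 of 14). None of 18 jasmonate genes was named by the annotation used here. The median differences of the measured lists lay between -0.17 and 0.23. Small numbers of members limit these counts. DME, a DNA demethylase, was 0.00 ± 0.13 (interval -0.29 to 0.30), and the drought-induced linker histone HIS1-3, at 35.4, 51.0 and 52.1 in line774 and 34.2, 32.0 and 44.0 in line1135, was -0.23 ± 0.18. COR15A, a cold-regulated protein of chloroplasts, gave 49.4, 174 and 131 in line774 against 94.4, 48.3 and 50.0 in line1135, overlapping values. Control arrays read 318, 198 and 203 at HIS1-3 and 422, 282 and 315 at COR15A. Each line was called below the control at both genes, but not at COR15B, COR47 or XERO2 of the same list.

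Of the 27 unnamed probe sets called, 245356_at was the most extreme. It read 2128, 2398 and 2512 in the control, 435, 449 and 413 in line774 and 3044, 3149 and 3164 in line1135. The line774 arrays were thus the low ones, with a change from the control of -2.39 ± 0.08, and the difference between the lines was 2.81 ± 0.08 (adjusted p = 2.22e-08), the smallest p of the comparison. Another unnamed probe set, 246671_at, rose from 16.8, 28.7 and 11.7 in line774 to 134, 100.4 and 130.2 in line1135 (1.99 ± 0.19). On the lower side, 260623_at read 80.4, 109 and 99.5 in line774 against 14.6, 14.8 and 8.00 in line1135 (-1.98 ± 0.19), with line774 alone above the control, and 253660_at 88.0, 82.6 and 72.7 in line774 against 2.08, 16.9 and 14.9 in line1135 (-1.88 ± 0.21), with line1135 alone below it.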

How the data were processed

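The deposited intensity values, 1 per probe set and array, came from the authors' use of MAS5 and GCOS software, per the submitters' processing notes, with no version stated there. Each array had a 2% trimmed mean near 100, which shows a scaling by 1 factor per array. No 2 arrays were identical.

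The 64 control probe sets of 22810 were dropped and log2(signal + 16) was taken without a filter. In R 4.3.3, limma 3.58.1 fitted 1 mean per group over the 9 arrays (lmFit, eBayes with trend, 6 residual degrees of freedom). Benjamini-Hochberg adjustment ran over 22746 probe sets, and calls required both an adjusted p under 0.05 and a 2-fold difference. "At least" folds compare the brighter group's mean log2 signal with the mean log2 background of the dimmer group.

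By the platform annotation, 13513 probe sets had 1 gene, 503 had several and 8730 had none named. Of the first, 13436 matched the RefSeq TAIR10.1 gene table through their Entrez number. Coordinates are left out because no build is named for the arrays.

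Named genes followed a rule: the 15 largest increases and decreases with 1 gene and non-overlapping lines, every called protein-coding gene and every called gene with a symbol, up to 4 called members of each list or the 2 of lowest p, 6 pseudogene-class loci called in both lines with the smallest difference, and called loci within 3 genes of each other. Further members of the lists and the unnamed probe sets given were chosen after their values were seen. The comparison and lists were chosen with earlier results of these data known. The fit was tested on simulated data. Alternatives were each array left out, offsets of 1 and 64, a minimum mean signal (25th or 50th percentile), quantile or median scaling, no trend, the 6 arrays of the lines alone, a replicate block, no shared probe sets, no minimum fold and a limit of 0.01 on adjusted p. The background filter was chosen after seeing the data. Plots used matplotlib 3.10.9.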

Additional observations from a re-analysis of the deposited data

Results flagged for a closer look

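In 3 probe sets the changes from the control ran in opposite directions in the lines, where both changes and the difference between them had to pass an adjusted p under 0.05 in limma. The first is the unnamed probe set 245356_at, whose change from the control was -2.39 ± 0.08 in line774 and 0.41 ± 0.08 in line1135, a difference of 2.81 ± 0.08 (adjusted p = 2.22e-08). The second, 250256_at, also unnamed, read 495, 449 and 499 in the control, 373, 358 and 420.2 in line774 and 626, 630.1 and 647 in line1135. It changed by -0.32 ± 0.07 and 0.39 ± 0.07, a difference of 0.71 ± 0.07 (adjusted p = 0.000479) that is under 2-fold. GSTU27, a glutathione transferase of the tau class, read 178, 198 and 209 in the control. Its line774 arrays read 227, 246 and 240.3 and its line1135 arrays 136, 129 and 132. It changed by 0.27 ± 0.08 in line774 and -0.50 ± 0.08 in line1135, a difference of -0.77 ± 0.08 (adjusted p = 0.00031), also under 2-fold. The changes from the control share the 3 control arrays.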

How the results depend on the processing

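No called value changed sign under any alternative run, but differences near 0 that were not called did, such as PYK10 (-0.03 to 0.25), MPC (-0.30 to 0.12) and DME (-0.13 to 0.08). Main counts were 99 higher and 38 lower, 76 higher of the pseudogene class, and 13 higher and 21 lower protein-coding. An offset of 1 gave 71 lower in all and 20 higher and 39 lower protein-coding, and an offset of 64 gave 48 higher and 13 lower, 39 pseudogene-class, and 5 and 9 protein-coding. The 50th percentile filter gave 54 higher, 41 pseudogene-class and 6 higher protein-coding, and leaving out shared probe sets 44 higher and 26 pseudogene-class. No minimum fold gave 256 higher and 198 lower, with 62 and 93 protein-coding, and an adjusted p under 0.01 gave 17 lower and 8 lower protein-coding. Leaving out 1 array gave 95 to 104 higher, 22 to 48 lower, 74 to 79 pseudogene-class, 10 to 14 higher and 11 to 26 lower protein-coding. The share of higher among calls was 72.3%, but 61.6% with an offset of 1, 58.7% with the 50th percentile filter, 55% without shared probe sets, 56.4% with no minimum fold and 84.3% at an adjusted p under 0.01. With only the 6 arrays 95 were higher and 27 lower. Calls kept without each array numbered 85 of 99 and 12 of 38. The replicate numbers were not treated as a pairing in the main fit. Same-numbered deviations correlated weakly, at 0.0274 to 0.0868, though each array correlated best with its own number. These values cannot settle whether same-numbered arrays shared a batch. The replicate block gave 99 higher, 44 lower and 76 pseudogene-class, with 13 higher and 25 lower protein-coding. The added background filter gave 99 higher and 48 lower. The causes of these shifts were not tested. Signals near background limit 24 of the 76 to lower bounds.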
